A study of Capra hircus with 20 samples.

Results

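miR-103 and miR-107 are a pair of closely related microRNAs known for their part in glucose and lipid metabolism, and their levels were followed in goat hypothalamus over the first months of life. They were taken from the deposited miRNA table by name, both arms of each hairpin included, which gave 3 rows of 683: miR-103-3p, miR-107-3p and miR-103-5p. The samples were hypothalamus from Jining grey goats, a breed with early puberty, at 1, 60, 120 and 180 days after birth, with 5 animals at each age and 20 small RNA libraries in all. All animals were kept under 1 regime with free feed and water and carried no genetic change or treatment per the labels, which name no sex and no region within the hypothalamus. Each library is bulk tissue, so that fewer cells of a type and less RNA per cell cannot be told apart.

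A microRNA is cut from a hairpin whose arms are called 5p and 3p. Usually 1 arm, the guide, is loaded into an Argonaute protein and represses mRNAs that match its seed, the bases near its 5′ end, while the other arm is mostly degraded. In miR-103 and miR-107 the guide is the 3p arm, and the guides share their seed and differ only near the 3′ end, so that they recognise largely the same targets. Their genes lie in introns of pantothenate kinase genes, which encode the enzyme that starts coenzyme A synthesis. In the goat RefSeq gene table (assembly ARS1.2, used here for names only) MIR103 lies within PANK2 and MIR107 within PANK1. Known targets include caveolin-1, a scaffold of insulin receptor signalling in fat and liver, and Dicer, the enzyme that makes microRNAs. In mouse hypothalamus miR-103 has been linked to PI3K and mTOR signalling in the POMC neurons that restrain feeding.

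miR-103-3p was an abundant miRNA of this tissue, miR-107-3p a moderate one and miR-103-5p one at the limit of detection. Levels are given in RPM, the reads of a miRNA per 1000000 miRNA reads of its library; a read covers a whole mature miRNA, so no correction for length is needed between them. miR-103-3p averaged 9073 ± 3071 RPM (SD, n = 20), or 0.907% of miRNA reads, and ranked 22 of 683 by mean level. miR-107-3p averaged 268 ± 166 RPM (SD, n = 20) and ranked 123. miR-103-5p averaged 1.33 ± 1.04 RPM (SD, n = 20) and ranked 396. In recovered reads this was 13571 to 104573 reads of miR-103-3p per library, 332 to 4494 of miR-107-3p and 0 to 21 of miR-103-5p.

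Library depth ran from 4017937 to 8324880 miRNA reads, and 3 reads, the limit that a count of 0 allows, corresponded to between 0.360 and 0.747 RPM. Replicate 2 of day 1 was the shallowest library and correlated least with the others (median Spearman 0.891, against 0.916 for the next lowest). Neuronal miRNAs were present in all libraries: the 5 of 7 neuron markers found under their listed names summed to between 94566 and 336349 RPM. Most of that was miR-9-5p, at a mean of 174740 RPM. The listed miR-124 stands in the table as miR-124a (896 ± 522 RPM, SD, n = 20), which was not matched and is not in the sum.

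Over the 4 ages no member changed by the test. The 3 rows were among 414 miRNAs that reached 1 RPM in at least 5 libraries and were tested with limma on log2(RPM + 1). In the F test over the 4 ages 0 of 3 members were called at a Benjamini-Hochberg adjusted p under 0.05, beside 1.93% of all miRNAs tested. In the 6 pairwise comparisons of ages limma likewise called 0 of 3 members, and none had an unadjusted p under 0.05. With other scalings in limma miR-107-3p was under that level at day 60 and day 180 against day 1 (unadjusted p = 0.0316 and 0.0492 with median-of-ratios, 0.0154 and 0.0474 with quantile scaling), and again 0 members were called. edgeR's quasi-likelihood test on the recovered reads called 0, with none at an unadjusted p under 0.05; DESeq2 called 0, with 1 at that level, miR-107-3p at day 180 against day 1 (unadjusted p = 0.0350, adjusted p = 0.140). With so few miRNAs called in all, these counts do not set the members apart.

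The signs of the differences are given beside those of all miRNAs. At day 60 against day 1 all 3 members lay below 0, as did 53.4% of all miRNAs tested; at day 120 against day 1 all 3 did (56.3% of all) and at day 180 against day 1 all 3 (62.6%). At day 120 against day 60 only miR-103-5p lay below 0 (47.6% of all). Between days 120 and 180 both guides did (66.2%), and at day 180 against day 60 miR-107-3p and miR-103-5p did (62.1%). For no member and no pair of ages did all libraries of one age lie outside the range of the other. That was so of few miRNAs in all: against day 1, 2.42% lay wholly lower and 0.725% wholly higher at day 60, 3.38% and 3.86% at day 120, and 2.9% and 0.725% at day 180. Among later ages these shares were 0.725% lower and 0.242% higher at day 120 against day 60, 0.725% and 0% at day 180 against day 120, and 1.93% and 0% at day 180 against day 60.

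**Figure D1:**
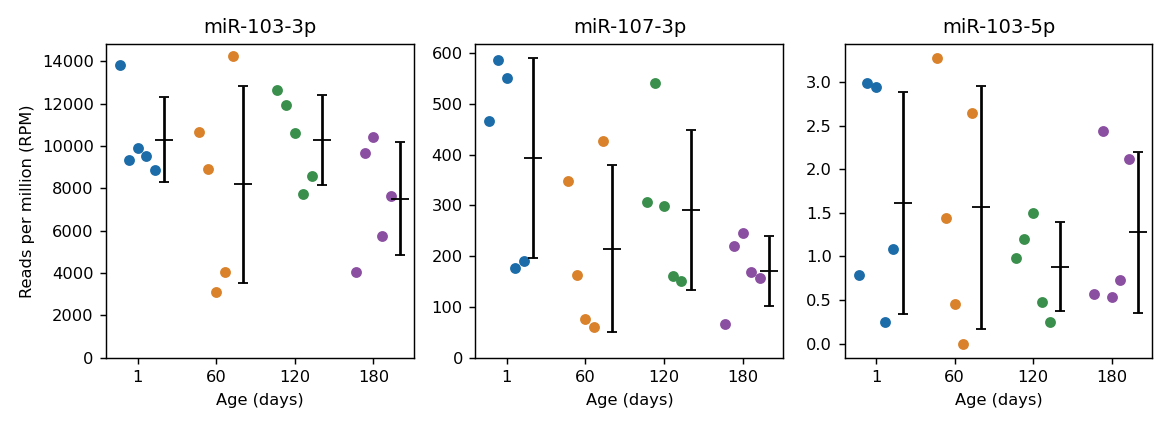
Levels of miR-103-3p, miR-107-3p and miR-103-5p in RPM (vertical axes, each with its own linear scale) at the 4 ages (horizontal axes); points are libraries, 5 per age, and the bars beside them give the mean and SD. The ages overlap in every panel, and on day 60 miR-103-3p spreads from 3117 to 14254 RPM.

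miR-103-3p, the dominant strand of the pair, lay at a like mean on days 1 and 120 and somewhat lower on days 60 and 180. On day 1 the 5 libraries held 13801, 9337, 9923, 9534 and 8877 RPM, a mean of 10294 ± 1996 (SD, n = 5). On day 60 they held 10652, 8887, 3117, 4055 and 14254 RPM, a mean of 8193 ± 4641 (SD, n = 5). Day 60 thus held both the highest and the lowest value of the series, and its animals differed 4.57-fold among themselves, against 1.55-fold on day 1.

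On day 120 miR-103-3p measured 12647, 11946, 10596, 7713 and 8558 RPM, a mean of 10292 ± 2123 (SD, n = 5). On day 180 it measured 4071, 9651, 10440, 5748 and 7649 RPM, a mean of 7512 ± 2651 (SD, n = 5). Days 120 and 180 overlapped, with 1 of 5 day-180 libraries above the day-120 mean. In order of mean RPM the ages ran day 1, day 120, day 60 and day 180, and no neighbours in that order differed beyond their spread. On the log2 scale of the tests day 180 lay slightly above day 60 instead.

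The fold changes of miR-103-3p bound what could have been missed. Day 180 against day 1 gave a log2 fold change of -0.52 (SE 0.40, 95% interval from -1.33 to 0.30, limma adjusted p = 0.462), with 1 of 5 day-180 libraries above the day-1 mean. The comparison called 3.38% of all miRNAs. Day 60 against day 1 gave -0.53 (SE 0.40, interval from -1.35 to 0.28, limma adjusted p = 0.493), where 3.86% of all miRNAs were called. It was -0.24 without replicate 3 of day 60, -0.34 without replicate 4 and -0.79 without replicate 5, none called, and day 180 against day 1 was -0.32 without replicate 1 of day 180. Day 120 against day 1 gave -0.01 (interval from -0.82 to 0.81, limma adjusted p = 0.999), where 3.38% were called. These intervals allow a level on day 180 between 0.398 and 1.23 times that of day 1, so that a fall to less than that lower bound, or a rise above that upper one, lies outside the interval. The median log2 fold change of all 414 miRNAs was itself -0.25 at day 180 against day 1, so that a miRNA with no change relative to the rest would also lie below 0.

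miR-107-3p, the scarcer guide, lay highest on day 1 and lowest on day 180. On day 1 the libraries held 467, 585, 550, 177 and 191 RPM, a mean of 394 ± 197 (SD, n = 5). On day 60 they held 348, 162, 76.3, 60.0 and 427 RPM, a mean of 215 ± 165 (SD, n = 5). Of the newborn libraries 3 lay at 467 RPM or more and 2 at 191 RPM or less, and the day-60 values fell on both sides of the lower ones.

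On day 120 miR-107-3p measured 307, 540, 298, 161 and 152 RPM, a mean of 291 ± 157 (SD, n = 5). On day 180 it measured 66.5, 220, 245, 169 and 156 RPM, a mean of 171 ± 68.9 (SD, n = 5). Every day-180 library lay below the day-1 mean, and 3 of them below the lowest day-1 library. The order of mean RPM was day 1, day 120, day 60 and day 180, as for miR-103-3p, and neighbours in it again overlapped.

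Its larger differences were those of days 60 and 180 from day 1, and which of them was larger turned with the scaling. At day 180 the log2 fold change was -1.14 (SE 0.56, 95% interval from -2.29 to 0.01, unadjusted p = 0.0518, limma adjusted p = 0.244), or 0.453 times the day-1 level, lower in 5 of 5 day-180 libraries. Of all miRNAs tested 20.8% had an unadjusted p under 0.05 in this comparison, and 14.98% had a lower log2 fold change. Day 60 against day 1 gave -1.10 (SE 0.56, interval from -2.25 to 0.05, limma adjusted p = 0.258), with 4 of 5 day-60 libraries below the newborn mean; of all miRNAs 21% had an unadjusted p under 0.05. Leaving out replicate 2 of the newborns, the library that stood apart, gave -0.95 (limma adjusted p = 0.455) and -0.91 (limma adjusted p = 0.375). With median-of-ratios scaling they were -0.90 at day 180 and -0.99 at day 60, and with quantile scaling -0.89 and -1.11. Neither passed the test, and neither interval shows that the ages were alike, since they reach down to 0.204 and 0.211 times the day-1 level.

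Between the later ages the guides did not pass either. From day 60 to day 120 the log2 fold change was 0.53 for miR-103-3p (SE 0.40, interval from -0.29 to 1.34, limma adjusted p = 0.925) and 0.68 for miR-107-3p (SE 0.56, interval from -0.47 to 1.83, limma adjusted p = 0.932). From day 120 to day 180 it was -0.51 and -0.73, with limma adjusted p = 0.997 for both. Day 180 against day 60 gave 0.02 and -0.04, with limma adjusted p = 0.996 for both. In each of these 3 comparisons limma called 0% of all miRNAs. At an unadjusted p under 0.05 there were 13 of 414 (3.14%) from day 60 to day 120, 3 (0.725%) from day 120 to day 180, and 20 (4.83%) from day 60 to day 180.

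**Figure D2:**
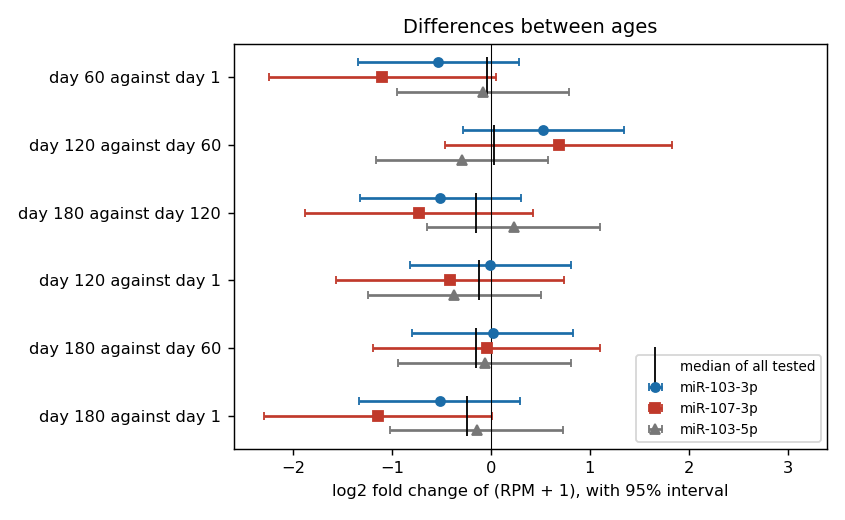
Log2 fold change of (RPM + 1) with its 95% interval (horizontal axis) for each pair of ages (vertical axis), for miR-103-3p, miR-107-3p and miR-103-5p; the black ticks mark the median over all 414 miRNAs tested. Every interval includes 0, and the interval of miR-107-3p at day 180 against day 1 ends at 0.01.

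miR-103-5p, the passenger arm, was measured by 179 reads in all 20 libraries together. On day 1 its libraries held 6, 12, 21, 2 and 9 reads, and on day 60 they held 21, 9, 2, 0 and 17. On day 120 they held 8, 10, 10, 3 and 2 reads, and on day 180 they held 4, 17, 3, 6 and 17. In 6 of 20 libraries it stood at 3 reads or fewer, where a level cannot be told from 0. Its means ran from 0.881 ± 0.512 RPM on day 120 to 1.61 ± 1.27 RPM on day 1 (SD, n = 5), and no comparison passed (limma adjusted p = 0.687 or higher in each, with 0% to 3.86% of all miRNAs called).

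Arm use was strongly one-sided at each age. Over all libraries the 5p arm gave 179 of the miR-103 reads and the 3p arm 1273308, a 5p share of 0.0141% (95% exact Clopper-Pearson interval from 0.0121% to 0.0163%, for counting error only). Pooled by age, the 5p share stood at 0.0137% in newborns and 0.0193% at 60 days. It stood at 0.00845% at 120 days and 0.0178% at 180 days. The log2 ratio of the arms, with 1 RPM added to each, was lower on day 120 than on day 60 by the exact two-sided permutation test (difference -0.82, adjusted p = 0.0476 over 6 pairs of ages, with 0 of 5 day-120 libraries above the day-60 mean). With that added value these ages did not overlap, and the unadjusted p of 0.00794 was the smallest this permutation test can give. That call turned on the added RPM: with 0.1 RPM added the difference was -0.69 (permutation adjusted p = 0.857), and for the 5p share itself, an alternative chosen after seeing the data, the permutation adjusted p was 0.524. Replicate 4 of day 60 had 0 reads of the 5p arm, so that its ratio is set by the added value. The call was also lost without replicate 1 or 3 of day 60, or replicate 1 or 5 of day 120 (exact permutation adjusted p = 0.0952 in each, with differences from -0.77 to -0.68). The ages still did not overlap in these cases, and the call held in 16 of the 20 runs with 1 library left out. It thus depended on which library was dropped.

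The guides rose and fell together from animal to animal. Across the 20 libraries log2(RPM + 1) of miR-103-3p and of miR-107-3p correlated with Pearson r = 0.856 (permutation p = 2e-05, adjusted 4e-05 over 2 pairs of members) and Spearman rho = 0.830 (permutation p = 1e-05, the smallest that these permutations can give; adjusted 2e-05). With the age means removed r was 0.829 and rho 0.777. The same 3 libraries were lowest in both guides: replicates 3 and 4 of day 60 and replicate 1 of day 180. Without the 2 libraries farthest from the median of miR-103-3p r was 0.791, and without all 3 low ones, a choice made after seeing the data, it was 0.673 over 17 libraries. After median-of-ratios scaling r was 0.650. Both values of a library share its depth and total, and how reads that match both of these near-identical guides were counted is not given in the sources used here, so that the level of miR-107-3p in particular is uncertain; the part of either in the correlation was not tested. The summed neuron markers also moved with both guides (r = 0.740 and 0.649), and their part in it was not tested either.

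The passenger arm had a lower correlation with its guide. It had at most 21 reads per library, and counting error at such levels lowers a correlation. Its part in the lower value was not tested. miR-103-5p and miR-103-3p gave r = 0.490 and rho = 0.499 (permutation p = 0.0283 and 0.0272, the same after adjustment over the 2 pairs). With the age means removed r was 0.594 (permutation p = 0.0059) and rho 0.547. Without replicates 3 and 4 of day 60, the 2 libraries farthest from the median, r was 0.309 and the relation no longer passed. It also did not pass without replicate 4 of day 60 alone (r = 0.387) or replicate 5 of day 60 alone (r = 0.443). With median-of-ratios scaling and all 20 libraries kept, r was 0.254 (permutation p = 0.282). The relation thus rested on a few libraries of day 60 and on the scaling.

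**Figure D3:**
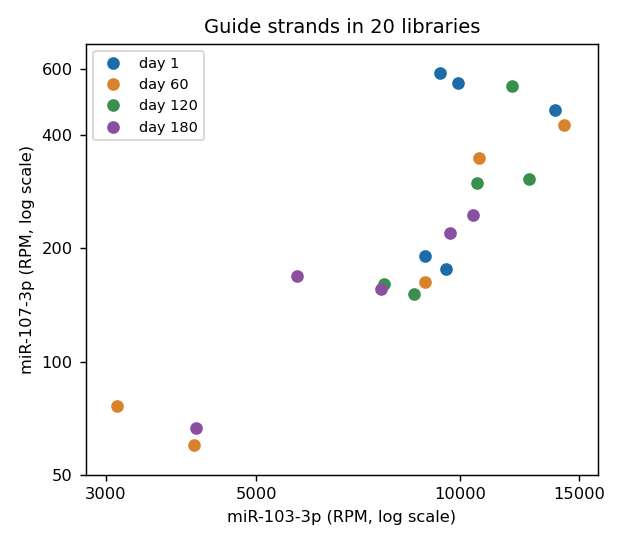
miR-107-3p against miR-103-3p in RPM, both axes logarithmic, with 1 point per library coloured by age. The 3 libraries at the lower left (60.0 to 76.3 RPM of miR-107-3p) are from days 60 and 180, and the other 17 still rise together (r = 0.673).

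The balance between the guides varied as much among newborns as between ages. miR-103-3p exceeded miR-107-3p in all libraries. On day 1 the ratio was 29.6, 15.96, 18.05, 54.0 and 46.5, and on day 60 it was 30.6, 54.7, 40.9, 67.6 and 33.4. On day 120 it was 41.2, 22.1, 35.6, 48.0 and 56.4, and on day 180 it was 61.2, 43.8, 42.6, 33.9 and 48.9. Day 1 held the lowest ratios, in replicates 2 and 3, but its other libraries overlapped all later ages.

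As a ratio within a library, this measure does not depend on how libraries are scaled. It does depend on how reads that match both guides were counted, which is not given in the sources used here. In newborns the mean log2 ratio was 4.87 ± 0.78, and at 60 days 5.43 ± 0.47. At 120 days it was 5.27 ± 0.51, and at 180 days 5.49 ± 0.31 (SD, n = 5 at each age). Day 180 exceeded day 1 by 0.62 (exact two-sided permutation p = 0.159, adjusted p = 0.643 over 6 pairs of ages), with 5 of 5 day-180 libraries above the day-1 mean. Day 60 exceeded day 1 by 0.56 (exact permutation p = 0.214, adjusted p = 0.643). With 5 libraries against 5 the smallest p the test can give is 0.00794. No pair of ages passed.

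miR-103-3p varied less between libraries than most miRNAs at 10 RPM or more, and miR-107-3p did not. Among the 271 known miRNAs above that mean level, which were not matched to the guides for abundance, the SD of log2(RPM + 1) over 20 libraries had a median of 0.89. That of miR-103-3p was 0.60, and 12.9% of these miRNAs had a smaller one. That of miR-107-3p was 0.98, and 64.6% had a smaller one. Within ages the SD was 0.58 for miR-103-3p and 0.92 for miR-107-3p. These are descriptions over miRNAs that share libraries, with no test.

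The miR-15 and miR-16 group are the nearest relatives by seed and are known to repress cell cycle and survival genes. Of the listed relatives 7 were in the table and all 7 were tested, and 0 of 7 passed in any of the 6 comparisons, beside 0% to 3.86% of all miRNAs. The most abundant were miR-16a-5p at 3615 ± 2009 RPM and miR-16b-5p at 766 ± 361 RPM (SD, n = 20). At day 180 against day 1, 5 of 7 lay below 0, with a median log2 fold change of -0.50 against -0.25 over all miRNAs. miR-16a-5p measured 2350 ± 950 RPM on day 1 and 3885 ± 3287 on day 180, while miR-15b-5p measured 60.2 ± 28.9 and 33.3 ± 24.3 RPM (SD, n = 5).

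In the reads of these 9 related guides, miR-103-3p and miR-107-3p together took most in nearly every animal. Their share was 76.4, 82.0, 78.9, 79.9 and 71.1% on day 1 and 68.0, 58.0, 42.7, 57.2 and 75.8% on day 60. On day 120 it was 87.3, 68.2, 58.5, 55.0 and 66.4%, and on day 180 it was 56.3, 61.9, 49.1, 79.8 and 79.3%. The newborns lay close together. At each later age at least 3 animals lay below their range, while replicate 1 of day 120 lay above it. Replicate 3 of day 60 and replicate 3 of day 180 were the 2 libraries in which the pair fell short of an even share.

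In newborns the mean share was 77.6 ± 4.19%, and at 60 days 60.4 ± 12.5%. At 120 days it was 67.1 ± 12.5%, and at 180 days 65.3 ± 13.8% (SD, n = 5 at each age). Day 60 differed from day 1 by -17.3 percentage points, with all 5 libraries below the day-1 mean (exact permutation p = 0.0159, adjusted p = 0.0952 over 6 pairs of ages). It did not pass; without replicate 5 of day 60 (a difference of -21.1) or replicate 1 of day 120 the exact permutation adjusted p was 0.0476. Day 120 against day 1 passed as well without replicate 1 of day 120, which held the highest share (a difference of -15.6, exact permutation adjusted p = 0.0476, against -10.6 and 0.238 with it). This share was defined after the data were seen.

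**Figure D4:**
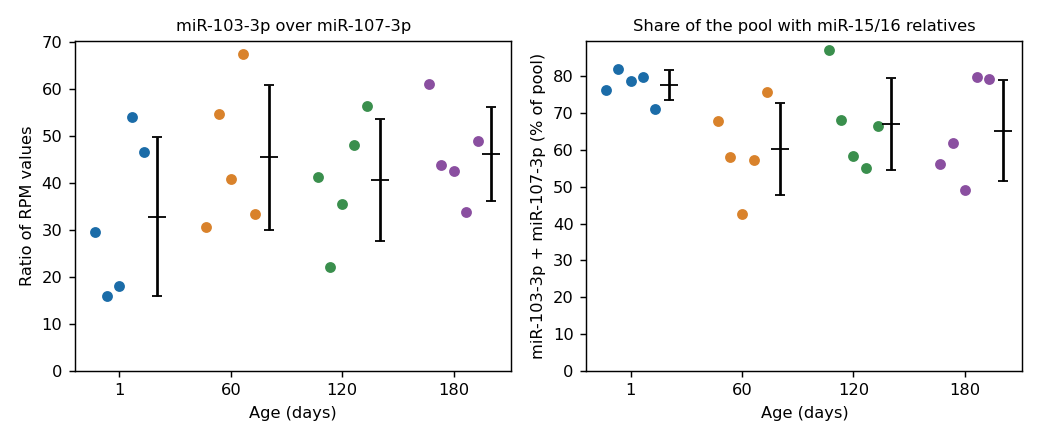
Left, ratio of miR-103-3p to miR-107-3p in each library; right, share of both together in the reads of the 9 guides that also include the miR-15 and miR-16 relatives, in percent; horizontal axes give the age in days, points are libraries, and bars the mean and SD of 5. The ratio has its lowest values (15.96 and 18.05) on day 1, and the share spreads from 42.7 to 75.8% on day 60 against 71.1 to 82.0% on day 1.

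The wider set of miRNAs tied to insulin and glucose metabolism gave the setting. Of 28 listed names 22 were in the table as listed and 21 were tested. The listed miR-124 stands in the table as miR-124a and was not counted among them. At day 60 against day 1, 1 of 21 was called higher and 0 lower, beside 3.86% of all miRNAs. The called member was miR-122, the main miRNA of liver, which is scarce in brain: its newborn libraries held 91.6, 24.1, 17.5, 17.9 and 2.66 RPM, and those of day 60 139, 138, 233, 2540 and 124 RPM. All day-60 values lay above all newborn ones, as for 0.725% of all miRNAs tested. The difference was 3.78 (SE 0.81) in log2(RPM + 1) with limma adjusted p = 0.0110. Replicate 4 of day 60, one of the 3 libraries lowest in both guides, held the highest value by far, and without it the change was 2.97 and no longer passed (limma adjusted p = 0.0559). The 3 liver markers listed, miR-122 among them, had median sums of 729, 926, 1086 and 1304 RPM in order of age, none at 0, and their part in this was not tested. In the other 5 comparisons 0 of 21 were called, beside 0% to 3.38% of all miRNAs. miR-122 was not confined to day 60: it held 115, 112, 121, 120 and 102 RPM on day 120. On day 180 it held 142, 131, 135, 123 and 10.9 RPM. Its log2 fold changes against day 1 were 2.54 and 2.06 at these ages (limma adjusted p = 0.0709 and 0.147). The most abundant members were miR-9-5p (174740 ± 65703 RPM), miR-7-5p (83586 ± 78288), miR-143-3p (63471 ± 54280) and miR-26a-5p (49141 ± 14263; SD, n = 20 each). Between days 1 and 180, 10 lay above 0 and 11 below, with a median log2 fold change of -0.03 against -0.25 over all miRNAs.

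Of 14 miRNAs linked to hypothalamic feeding circuits 11 were in the table and 10 were tested, and 0 of 10 were called in any comparison, beside 0% to 3.86% of all miRNAs. Of these 10, at day 180 against day 1, 8 lay below 0, beside 62.6% of all miRNAs, with a median log2 fold change of -0.50 against -0.25 over all. miR-200b, of a family that acts in hypothalamic leptin and insulin signalling and in GnRH neurons, measured 237 ± 311 RPM on day 1 and 75.4 ± 23.4 on day 180 (SD, n = 5). Its log2 fold change between these ages was -0.62 (SE 0.75, limma adjusted p = 0.671). miR-100-5p, the second most abundant after miR-7-5p, measured 50705 ± 12871 and 55905 ± 18982 RPM (SD, n = 5).

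The miRNAs with the most similar profile were found among 269 known ones at 10 RPM or more on average, by Pearson r of log2(RPM + 1) over the 20 libraries. For miR-103-3p they were miR-106a-5p (r = 0.854), miR-7-3p (0.828), miR-124a (0.816), miR-369-3p (0.815) and miR-93-5p (0.809). None of the 269 came above miR-107-3p itself. For miR-107-3p they were miR-181c-3p (r = 0.898), miR-106a-5p (0.895), miR-380-3p (0.887), miR-708-5p (0.876) and miR-93-5p (0.875), all 5 above miR-103-3p. miR-106a-5p and miR-93-5p thus appear beside both guides. With the age means removed these r values ran from 0.771 to 0.900. They are the highest of many and share the depth and total of each library, and are given as a description only.

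Markers of cell types that a hypothalamic sample can hold were summed at each age. In newborns the neuron markers had a median sum of 285074 RPM (range 163199 to 336349), and at 60 days 175761 (94566 to 249281). At 120 days it was 209691 (197651 to 309833), and at 180 days 171461 (106714 to 217172). From library to library this sum moved with the guides: on the log2 scale it had r = 0.740 with miR-103-3p and 0.649 with miR-107-3p over 20 libraries. The choroid plexus and multiciliated sum had r = -0.598 and -0.407, and the erythroid sum 0.278 and 0.522. Sums were also taken for microglia and immune, vessel, muscle, liver, pituitary and epithelium, and oligodendrocyte markers. Their r ran from -0.343 to 0.063 with miR-103-3p and from -0.404 to 0.210 with miR-107-3p. Most of the neuron sum was miR-9-5p (174740 ± 65703 RPM, SD, n = 20), which alone had r = 0.785 and 0.660. Most of the choroid plexus and multiciliated sum was miR-204-5p (4220 ± 2518 RPM, SD, n = 20), which alone had r = -0.629 and -0.458. These are descriptions over values that share each library's total, and the part of any of these sums in the guides' levels was not tested. None of the 5 neuron markers was at 0 at any age, and 0 of 5 were called in the comparisons of ages, beside 0% to 3.86% of all miRNAs, a share at which no call among 5 is a usual count. The 5 choroid plexus and multiciliated markers in the table had median sums of 2898, 7794, 4134 and 3508 RPM in order of age (range over all libraries 1490 to 11058). At day 60 against day 1 miR-204-5p had a log2 fold change of 1.00, while 3 of the 4 markers tested lay below 0. Of these 4, 1, miR-449a-5p, was called lower at 60, 120 and 180 days than in newborns. In those comparisons 3.86%, 3.38% and 3.38% of all miRNAs were called in either direction. The 3 erythroid markers had median sums of 264, 183, 545 and 271 RPM (range 90.5 to 1552), none at 0.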

How the data were processed

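The authors deposited 1 table of 683 miRNAs by 20 libraries; its header calls the unit TPM, but the deposited values behave as RPM (reads per 1000000 miRNA reads, not divided by length). Per the labels' protocols, total RNA was isolated in Trizol, and a NEBNext small RNA kit gave the libraries; per the submitters' processing notes Bowtie was used. For its version, the build, the miRNA catalogue, the counter and the treatment of reads matching both miR-103 and miR-107, the sources used here give nothing. Mature sequences were not used here. A column of sums (1 column) was left out.

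Low values were whole multiples of 1 step per library, and whole reads came out for 100% of values below 1000 reads (tolerance 0.1 read). Depth was 4017937 to 8324880 reads, median 6978195; intervals and floors cover counting error only, PCR duplicates being unmarked. Libraries of 1 age differed beyond sampling noise in each of 40 pairs (chi-square of 392 or more per degree of freedom).

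All 20 libraries entered 1 limma fit (3.58.1, R 4.3.3; two-sided, with 4 age means and a mean-variance trend) on log2(RPM + 1). A fold change on that scale understates changes of low miRNAs. miRNAs at 1 RPM or more in at least 5 libraries were tested (414), with Benjamini-Hochberg adjustment at 0.05 over all of them. Ratios were tested by exact permutation, correlations by 100000 permutations (10000 in alternatives). Alternatives were edgeR (4.0.16, TMM) and DESeq2 (1.42.0) on recovered reads, other pseudocounts, filters and scalings, only the ages compared, a replicate block, and leaving out each library. Fits were tested on simulated data. Named genes were the members, the 5 most similar miRNAs to each guide, and, from the lists, called or most abundant members; miR-15b-5p and miR-200b were chosen after their values were seen. The members and lists were chosen with earlier results of these data known. The labels name 5 biological replicates per age and no batch.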

Additional observations from a re-analysis of the deposited data

Results flagged for a closer look

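One value lay far from the others of its age: miR-103-3p in replicate 1 of day 1, at 13801 RPM, against 8877 to 9923 RPM in the other 4 newborns. Dixon's test was applied to 20 groups of 5 values (the 3 members and 2 ratios at the 4 ages), of which chance flags about 1 in 20, so that 1 flag is what chance gives. The library was not shallow (7577244 reads).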

How the results depend on the processing

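No member was called in any comparison under any of the alternatives or with any 1 library left out (0 of 3 in each). The log2 fold change of miR-107-3p stayed below 0 throughout at day 180 against day 1 (-1.38 to -0.83, smallest adjusted p 0.139) and at day 60 against day 1 (-1.44 to -0.74, smallest adjusted p 0.0966).

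Differences near 0 changed sign, none of them called. Day 120 against day 1 became 0.040 for miR-103-3p with median-of-ratios scaling, 0.055 with edgeR and 0.018 with DESeq2 (left-out libraries -0.088 to 0.10). Day 180 against day 60 became -0.13 for miR-103-3p with quantile scaling (-0.28 to 0.27), 0.092 and 0.22 for miR-107-3p with median-of-ratios and quantile scaling (-0.40 to 0.30), and 0.26, 0.084 and 0.12 for miR-103-5p with pseudocount 0.1, median-of-ratios and quantile scaling (-0.35 to 0.17). For miR-103-5p, day 60 against day 1 became 0.046 with edgeR and 0.013 with DESeq2 (-0.31 to 0.21), and day 180 against day 1 became 0.011, 0.091 and 0.041 with median-of-ratios, quantile and edgeR (-0.37 to 0.046). It was not tested under the filter at 10 RPM.

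With a library left out, the guides' log2 ratio ran from -0.29 to 0.045 at day 120 against day 60 and from -0.064 to 0.22 at day 180 against day 60. The arm ratio at day 120 against day 60 was -0.69 with pseudocount 0.1, -0.66 with 5, and -0.92 to -0.68 over left-out libraries; in 5p percent it was -0.00783. At day 180 against day 60 it became 0.25 with pseudocount 0.1 and 0.000894 in 5p percent (-0.19 to 0.18), and at day 60 against day 1 -0.000394 in 5p percent. At day 180 against day 120 it ran from 0.63 to 1.00, called without replicate 3 of day 180. The correlation of miR-103-3p with miR-103-5p was 0.254 with median-of-ratios scaling and 0.309 without the 2 farthest libraries (0.387 to 0.540 over left-out ones, not called without replicate 4 or 5 of day 60). The pool share at day 180 against day 120 ran from -5.43 to 3.26 percentage points, at day 60 against day 1 from -21.1 to -12.9 and at day 120 against day 1 from -15.6 to -7.55. The causes were not tested.

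All miRNAs called numbered 16 at day 60 against day 1, and 4 with only the ages compared, 9 with no filter, 34 with quantile and 40 with median-of-ratios scaling, 57 with edgeR and 86 with DESeq2; leaving out 1 library gave 2 (replicate 4 of day 60) to 43 (replicate 4 of day 1). At day 120 against day 1 there were 14, 4 to 74 over the alternatives and 7 to 29 over left-out libraries. At day 180 against day 1 there were 14, 5 to 61 and 5 to 31, and in the F test 8, 6 to 90 and 5 to 16. The shares of all miRNAs called in the text move with these counts.

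Whether replicate numbers pair the samples was not tested. Over 30 same-numbered pairs the correlation of deviations from the age means ran from -0.71 to 0.54, above 0.1 in 11. Its median was 0.069, against -0.046 over other pairs of libraries from different ages. With the replicate block limma called 0 members (miR-107-3p at day 180 against day 1, adjusted p 0.221). The arm ratio at day 120 against day 60 kept -0.82 (exact sign-flip p = 0.0625, adjusted p = 0.375). That p is the smallest that 5 pairs allow, so the sign-flip test could not have called it. Depth limits miR-103-5p, with at most 21 reads per library.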
